A study of Mus musculus with 7 samples.

Results

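The 36 genes described here encode the enzymes of glycolysis, the carriers and regulators that feed and steer it, the oxygen-sensing machinery, and genes that hypoxia is known to induce outside glycolysis. They were taken by symbol from a table of 21878 genes, and all 36 symbols were found. By role they comprise 15 glycolytic enzymes, 6 genes of transport and control, 3 genes of oxygen sensing and 12 non-glycolytic hypoxia targets. RNA came from grafts of B16F10, a single pigmented melanoma cell line of C57BL/6 origin, grown in female C57BL/6J mice that were randomized once the tumours could be felt. The control group, named NC, held 3 libraries, and the labels give its treatment only as control, without naming a vehicle. The other group held 4 libraries from animals dosed orally with Zelnorm, 1.25 mg/kg at intervals of 2 days. The drug's generic name is tegaserod, it acts on serotonin receptors of the gut, and the sample titles call this group MBZ without saying what the letters stand for. Libraries carry the names of the count columns: the controls are NC_5, NC_6 and NC_10, and the Zelnorm tumours are MBZ_9, MBZ_11, MBZ_13 and MBZ_15. The age of the mice and the time of collection are not given, and the labels do not say that each library is a separate mouse, so p-values measure only the spread between these libraries.

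Glycolysis splits glucose into pyruvate in the cytosol, and lactate dehydrogenase turns pyruvate into lactate when it is not passed to mitochondria. Tumour cells, melanoma cells among them, often run this pathway at a high rate even with oxygen present. When oxygen is short, the prolyl hydroxylases encoded by Egln1 and Egln3 no longer mark HIF-1 alpha for destruction, and the stabilised protein binds DNA with its partner ARNT and raises transcription of glycolytic genes together with genes for blood vessel growth, pH control, mitophagy and collagen processing. HIF-1 alpha is controlled mainly as a protein, which RNA sequencing does not measure.

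The DNA core bound by HIF is written ACGTG or GCGTG. The RefSeq promoter table (GRCm38.p6), which gives 300 bases per listed start, 250 before it and 50 after it, held 33 of the 36 genes. Bnip3l, Ndrg1 and Slc2a3 were not in it. Promoters are shown for Ldha, whose window held 5 matches to ACGTG, and for Bnip3 and P4ha1, targets whose fold changes had opposite signs. Pdk1 is shown as the only gene of the 36 whose groups did not overlap. Ldha and Pdk1 each had another listed start, not shown, whose window held 0 matches to ACGTG. That other window held 2 matches to GCGTG in Ldha and 0 in Pdk1. Each runs 5′ to 3′ on the gene's own strand, and capitals mark ACGTG or GCGTG on either strand (CACGT or CACGC where the match is on the other strand).
Ldha, chr7:46845554-46845853, plus strand: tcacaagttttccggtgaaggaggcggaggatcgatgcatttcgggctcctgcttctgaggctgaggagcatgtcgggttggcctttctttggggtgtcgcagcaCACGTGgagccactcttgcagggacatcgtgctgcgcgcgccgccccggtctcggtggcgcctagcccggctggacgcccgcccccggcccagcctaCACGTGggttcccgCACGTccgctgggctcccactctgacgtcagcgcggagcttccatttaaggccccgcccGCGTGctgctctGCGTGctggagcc
Bnip3, chr7:138909457-138909756, minus strand: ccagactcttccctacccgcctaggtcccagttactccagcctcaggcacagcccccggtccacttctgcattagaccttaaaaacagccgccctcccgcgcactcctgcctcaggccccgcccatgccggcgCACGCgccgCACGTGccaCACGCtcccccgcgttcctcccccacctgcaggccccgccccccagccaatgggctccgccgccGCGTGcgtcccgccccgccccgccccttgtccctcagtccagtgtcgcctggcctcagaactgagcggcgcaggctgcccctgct
P4ha1, chr10:59323046-59323345, plus strand: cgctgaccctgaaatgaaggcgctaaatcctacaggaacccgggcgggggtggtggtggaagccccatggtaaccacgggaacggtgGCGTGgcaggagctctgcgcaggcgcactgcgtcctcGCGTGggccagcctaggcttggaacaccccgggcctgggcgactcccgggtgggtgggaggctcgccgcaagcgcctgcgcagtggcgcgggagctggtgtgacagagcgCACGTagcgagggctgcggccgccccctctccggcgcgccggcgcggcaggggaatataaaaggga
Pdk1, chr2:71872974-71873273, plus strand: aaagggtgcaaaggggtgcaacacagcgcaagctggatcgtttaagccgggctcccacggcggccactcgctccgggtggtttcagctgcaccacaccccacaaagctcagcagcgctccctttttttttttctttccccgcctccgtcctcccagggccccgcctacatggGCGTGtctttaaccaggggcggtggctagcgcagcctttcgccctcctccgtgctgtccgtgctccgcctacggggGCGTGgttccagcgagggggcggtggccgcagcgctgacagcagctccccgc
The Ldha window held 5 matches to ACGTG, of which 4 came from 2 copies of the palindrome CACGTG, an E-box read once on each strand. Bnip3 had 2 matches to ACGTG from 1 such palindrome, P4ha1 had 1 and Pdk1 had 0. Matches to GCGTG numbered 2 in Ldha, 3 in Bnip3, 2 in P4ha1 and 2 in Pdk1.

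At least 1 ACGTG on either strand was present in a listed promoter of 23 of the 33 genes (69.7%), against 3028 of 10402 tested genes with a promoter (29.1%) and 5886 of 27025 genes in the whole table (21.8%). By role it was found for 9 of 15 enzymes, 3 of 5 genes of transport and control, 3 of 3 genes of oxygen sensing and 8 of 10 targets. Among genes with a single listed start the shares were 15 of 22 (68.2%) and 2138 of 8258 tested genes (25.9%). With GCGTG counted as well, 30 of 33 genes (90.9%) and 66.8% of tested genes had a match. Median GC content was 63.2% in the windows of the 33 genes and 60.7% in those of tested genes. The genes were picked as known hypoxia targets, many of them studied through such sites, so these shares describe the list and support nothing about it. A match is a run of letters and not a bound site.

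Gene counts summed to between 16903598 and 19666598 per library, and a count of 3, used as the floor, came to between 0.152 and 0.178 CPM (a count as a rate over the TMM-scaled library total). Floors cover counting error only. All 8 pigment cell markers were present in every library, with summed levels of 28998 to 32947 CPM in NC and 32008 to 34333 in Zelnorm. Host tissue differed between libraries. Of 16 skeletal muscle markers, the summed level ran from 22.0 to 65.3 CPM in NC and from 25.7 to 426 in Zelnorm, highest in MBZ_15, MBZ_11 and NC_5, with Myh1, Myh2, Myh4, Tnnt3, Pvalb and Mb at 0 in at least 1 library. Leukocyte markers were higher by the fit in 9 of 9 (172 to 259 CPM in NC, 229 to 380 in Zelnorm), macrophage markers in 10 of 10 (221 to 453 and 424 to 619) and fibroblast markers in 8 of 8 (940 to 2003 and 1494 to 2661). Endothelial markers summed to 184 to 301 and 207 to 244 CPM. All 5 erythroid markers tested were lower by the fit, and the erythroid list summed to 187 to 234 and 96.7 to 226 CPM. All 7 keratinocyte markers were at 0 in at least 1 library. They summed to 1.22 to 1.42 CPM in NC, to 16.7 in MBZ_11 and to 0 to 1.80 in the other Zelnorm libraries. In bulk tumour RNA, fewer cells of a type and less RNA per cell cannot be told apart.

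No gene of the 36 passed the test. edgeR's quasi-likelihood test with Benjamini-Hochberg adjustment over 12997 tested genes called 4 genes at an adjusted p below 0.05, which is 0.0308% of them, and 0 of the 36 were among these. The smallest adjusted p in the list was 0.296 (Pdk1). Differences were small: 35 of the 36 log2 fold changes (97.2%) lay within 0.25 of 0, against 81.6% of all tested genes. The sign leaned one way, with 29 genes lower and 7 higher in Zelnorm (80.6% lower), whereas all tested genes split into 6479 lower and 6518 higher (49.9% lower). The median log2 fold change was -0.07 over the 36 and 0.00 over all tested genes. These genes are read in the same 7 libraries and move together from library to library, so the 29 are not separate observations.

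**Figure D1:**
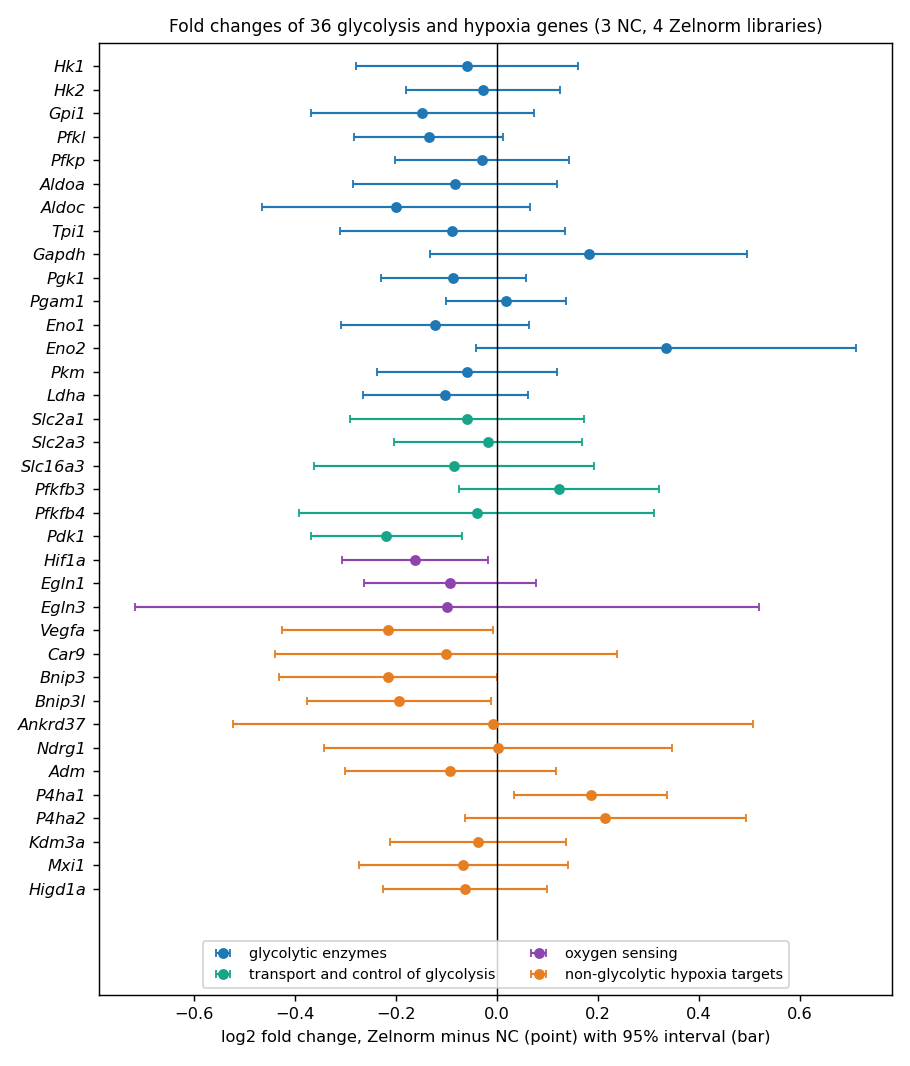
Log2 fold change of Zelnorm against NC (horizontal axis, point) with its 95% interval (bar) for the 36 genes, coloured by role. Most points lie just left of 0, Eno2 lies farthest right at 0.34, and the intervals of Egln3 and Ankrd37, the genes with the fewest counts, are the widest.

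At an unadjusted p below 0.05, 5 of the 36 were lower (Pdk1, Hif1a, Vegfa, Bnip3 and Bnip3l) and 1 was higher (P4ha1). In GRCm38.p6 these genes lie at chr2:71873215-71903858 (Pdk1), chr12:73901324-73947554 (Hif1a), chr17:46016993-46032377 (Vegfa), chr7:138890836-138909506 (Bnip3), chr14:66985238-67008877 (Bnip3l) and chr10:59323197-59373304 (P4ha1). Over all tested genes the same threshold held for 3.38% on the lower side and 6.94% on the higher side. Without adjustment these 6 are a description of the extremes of the list, and the count on the lower side moved from 5 to between 1 and 9 when single libraries were left out: to 3 without NC_5, 1 without NC_6, 9 without NC_10, 3 without MBZ_9, 1 without MBZ_11 and 2 without MBZ_13. The count on the higher side became 0 without NC_5, NC_10 or MBZ_15, 2 without NC_6 and 3 without MBZ_13. The shares of 3.38% and 6.94% belong to the fit of all libraries. Those of the reduced fits are not given here, so the counts with a library left out have no background beside them. Every Zelnorm library lay below every NC library for 1 of the 36 genes, against 4.27% of all tested genes, and above it for 0, against 5.33%.

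The carriers of glucose and lactate had small differences in the fit of all 7 libraries, and that of Slc2a1 depended on how muscle-rich libraries were treated. Slc2a1 encodes GLUT1, the main glucose carrier of many tumours, and was at 264, 265 and 254 CPM in NC_5, NC_6 and NC_10 and at 234, 252, 211 and 305 CPM in MBZ_9, MBZ_11, MBZ_13 and MBZ_15. The NC libraries were close to each other and sat inside the wider range of the Zelnorm libraries, and the log2 fold change was -0.06 ± 0.10 (SE). It was -0.23 with the muscle level as a covariate (unadjusted p 0.0219 in edgeR's test), -0.17 without MBZ_15 (unadjusted p 0.0350) and -0.23 without the 3 libraries richest in muscle transcripts (unadjusted p 0.0275). Slc2a3, which encodes the high-affinity carrier GLUT3, had 32.8 ± 1.21 CPM in NC (SD, n = 3) and 32.4 ± 3.14 in Zelnorm (SD, n = 4), which differed by -0.02 ± 0.08 (SE) on the log2 scale. Slc16a3, the lactate exporter MCT4, had 224 ± 29.3 and 212 ± 33.6 CPM, with NC_5 highest at 256 and MBZ_13 lowest at 162. For Slc16a3 the log2 fold change was -0.08 ± 0.13 (SE), and -0.25 with the muscle covariate (unadjusted p 0.0515 in edgeR's test).

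Among the 15 enzymes, 12 were lower and 3 higher in Zelnorm, and 0 reached an unadjusted p below 0.05 in either direction. Their median log2 fold change was -0.08, with a range from -0.20 (Aldoc) to 0.34 (Eno2), and their smallest adjusted p was 0.530 (Pfkl). Some enzymes crossed the unadjusted threshold in other fits: Pfkl (p 0.0191) and Ldha (p 0.0384) with the muscle level as a covariate, Pfkl by DESeq2 (p 0.0362), Eno2 by limma voom (p 0.0439) and without NC_6 (p 0.00559), and Gpi1, Pfkl, Aldoc and Eno1 without NC_10. Of these Eno2 was higher and the others lower in Zelnorm, and 0 members were called after adjustment in any of these fits. The summed level of the 15 was 44359, 39200 and 36265 CPM in NC_5, NC_6 and NC_10 and 40728, 38059, 34289 and 37358 CPM in MBZ_9, MBZ_11, MBZ_13 and MBZ_15. The means were 39942 ± 4098 (SD, n = 3) and 37609 ± 2647 (SD, n = 4), so the SD of NC exceeded the difference between the groups. These 15 genes took between 3.47% and 4.38% of all counts in a library.

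Eno1, enolase 1, which forms phosphoenolpyruvate, had the most counts of the 36 genes. It was at 9290, 8171 and 7595 CPM in NC_5, NC_6 and NC_10 and at 8417, 7842, 6913 and 7533 CPM in MBZ_9, MBZ_11, MBZ_13 and MBZ_15. The groups overlapped, with NC_5 on top and MBZ_13 at the bottom, and the log2 fold change was -0.12 ± 0.08 (SE). Pkm, pyruvate kinase of muscle type and of most tumours, followed the same order at both ends, with 8053, 6903 and 6385 CPM in NC and 7084, 7029, 6340 and 6850 CPM in Zelnorm. Ldha, which makes lactate from pyruvate, was at 4233, 3666 and 3590 CPM in NC and 3725, 3577, 3255 and 3719 CPM in Zelnorm. For Pkm and Ldha too, NC_5 stood apart upward and the other 6 libraries overlapped. Their log2 fold changes were -0.06 ± 0.08 and -0.10 ± 0.07 (SE).

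The upper steps of the pathway gave like values. Hk1 and Hk2 encode hexokinases, which trap glucose in the cell, and had log2 fold changes of -0.06 ± 0.10 and -0.03 ± 0.07 (SE). Hk2, the isoform known as a HIF target, was at 363, 381 and 360 CPM in NC and 354, 329, 356 and 404 CPM in Zelnorm. Its highest and its lowest library were thus both in Zelnorm. Gpi1, glucose phosphate isomerase, had 2449 ± 337 CPM in NC and 2211 ± 219 in Zelnorm. The phosphofructokinases, which commit sugar to glycolysis, had log2 fold changes of -0.13 ± 0.07 (Pfkl) and -0.03 ± 0.08 (Pfkp). Pfkl had the smallest p of the enzymes, at 0.0686 unadjusted in the edgeR fit across all genes, and its NC libraries ran from 1186 to 1389 CPM against 1079 to 1201 in Zelnorm. For the aldolases the values were -0.08 ± 0.09 (Aldoa) and -0.20 ± 0.12 (Aldoc), the latter with NC_5 alone at 169 CPM and the other 6 libraries between 111 and 133.

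In the lower steps, Tpi1, triose phosphate isomerase, and Pgk1, the first ATP-forming enzyme of the pathway, both had a log2 fold change of -0.09, with SE of 0.10 and 0.06. Pgam1, phosphoglycerate mutase, was the most precisely measured enzyme, with 1186 ± 29.7 CPM in NC and 1201 ± 53.9 in Zelnorm, and the 95% interval of its log2 fold change ran from -0.10 to 0.14. Eno2, the neuronal enolase, was the enzyme with the largest positive value. It was at 11.4, 14.9 and 8.39 CPM in NC and 14.8, 14.0, 13.4 and 16.0 CPM in Zelnorm, and only NC_6 reached the Zelnorm range. Its log2 fold change was 0.34 ± 0.17 (SE), with an unadjusted p of 0.0756 and an adjusted p of 0.539 in edgeR's quasi-likelihood test. Gapdh, often used as a reference gene, was at 527, 537 and 411 CPM in NC and 707, 483, 469 and 570 CPM in Zelnorm, high in MBZ_9 and low in NC_10, with a log2 fold change of 0.18 ± 0.14 (SE).

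Per kilobase of exon (merged exons of GENCODE M21), the order of levels in NC put Pgk1 first at 1686 ± 113 CPM per kb (SD, n = 3), followed by Tpi1 at 1603 ± 227, Eno1 at 1553 ± 160, Aldoa at 1490 ± 146 and Pkm at 1422 ± 171. Each of these neighbours differed from the next by less than its SD. The lengths merge the exons of all annotated transcripts of a gene, and which transcripts were expressed was not examined. They came to 5.38 kb for Eno1, 4.13 kb for Gapdh and 2.24 kb for Pgk1. Before division by length, Eno1 was at 8352 CPM in NC and Pgk1 at 3784, so the order depends on the lengths used. Ldha followed at 1157 ± 106, then Pgam1 at 598 ± 14.99, Gpi1 at 379 ± 52.2 and Pfkl at 191 ± 15.8. Hk2 at 61.6 ± 1.97 and Hk1 at 61.3 ± 6.99 CPM per kb could not be ordered. The carriers Slc2a1 and Slc16a3 were at 74.4 ± 1.79 and 42.2 ± 5.51, and the regulators Pdk1, Pfkfb3 and Pfkfb4 at 19.0 ± 1.35, 5.49 ± 0.33 and 1.35 ± 0.24. Gapdh stood at 119 ± 16.9 CPM per kb, only 7.42% of Tpi1. Gapdh has many near-identical pseudogene copies in the mouse genome, and how reads fitting several copies were counted is not given in the sources used here, so its level and its scatter are uncertain. Eno1 has the near-identical copy Eno1b, which was listed at 182 to 269 CPM with a log2 fold change of -0.18 ± 0.11 (SE).

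**Figure D2:**
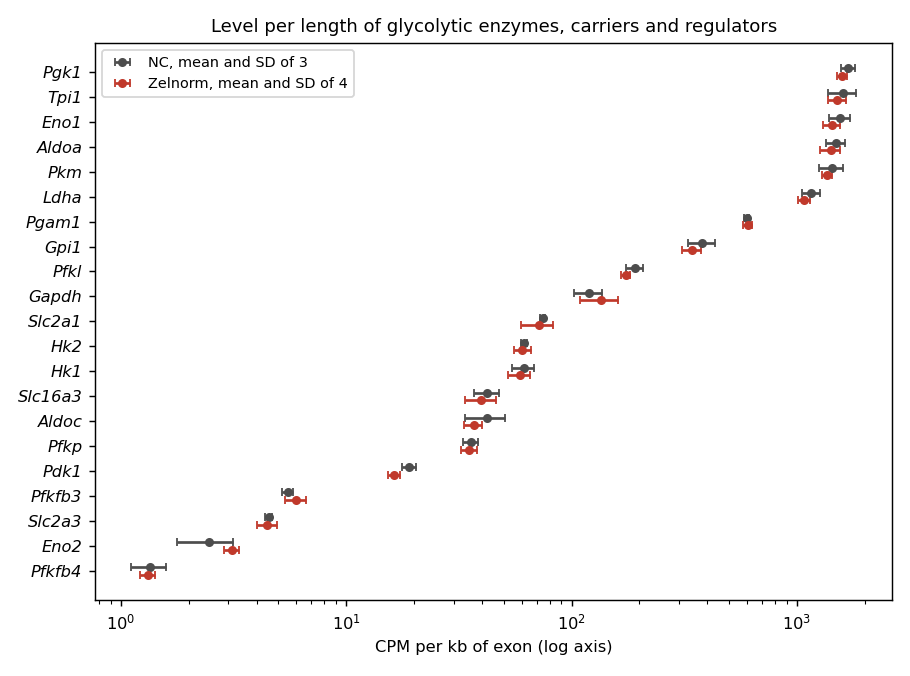
Level per length (CPM per kb of exon, log axis) of the 15 enzymes and 6 genes of transport and control, as mean and SD of 3 NC (grey) and 4 Zelnorm (red) libraries. Pgk1, Tpi1, Eno1, Aldoa, Pkm and Ldha lie highest in both groups, and Gapdh lies below Pfkl.

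The position of single libraries was shared by most enzymes. NC_5 had the highest level of 11 of the 15 enzymes (73.3%), against 18.6% of all tested genes, and MBZ_13 the lowest of 10 of the 15 (66.7%), against 14.4%. The 4 enzymes not highest in NC_5 were Hk2, Gapdh, Pgam1 and Eno2. Of all 36 genes, NC_5 was highest for 21, MBZ_15 for 10, NC_6 for 3 and MBZ_9 for 2, and MBZ_13 was lowest for 20. Over the 12 targets the top was divided, with NC_5 highest for 6 and MBZ_15 for 4. The medians depended on these libraries: without NC_5 the enzymes' median log2 fold change was -0.01 and the targets' was 0.02, and without NC_10 they were -0.14 and -0.11. Without MBZ_13 they were -0.04 and -0.04, and without the 3 libraries richest in muscle transcripts -0.03 and -0.08. With the muscle level as a covariate they were -0.13 and -0.16, against -0.08 and -0.07 in the fit reported. NC_5 had the lowest fibroblast level of the 7 libraries (940 CPM summed) and the most muscle transcripts of the 3 NC libraries, while MBZ_13 was below only MBZ_15 and NC_10 for fibroblasts (1765 CPM) and low for muscle (25.7 CPM). MBZ_13 also stood apart in the 6 adipocyte markers, with 252 CPM summed against 37.9 to 121 in the other libraries, none of the markers being at 0. The part of this in the enzyme levels was not tested.

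**Figure D3:**
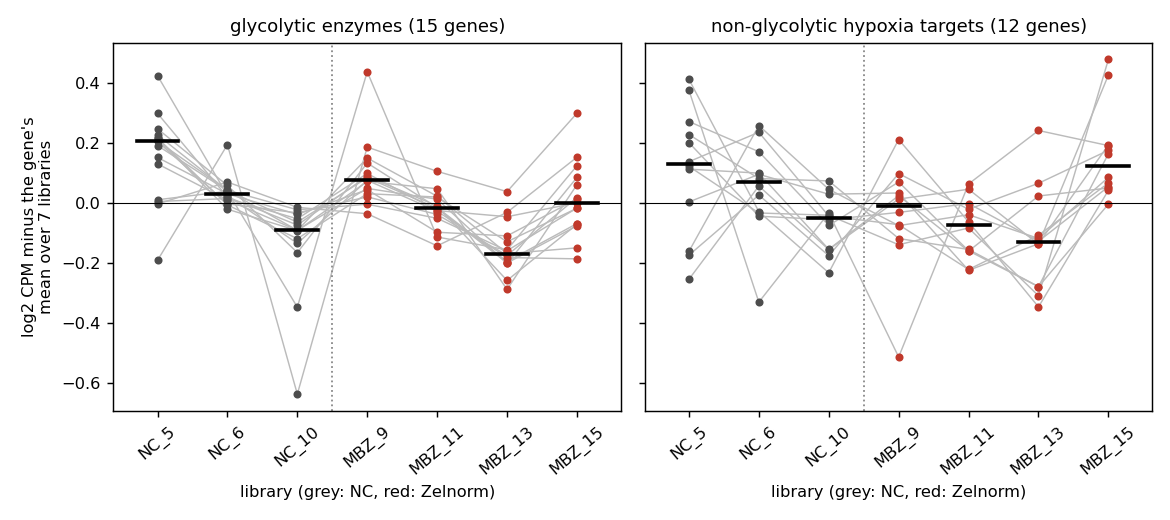
Log2 CPM of each gene minus its own mean over the 7 libraries, for 15 enzymes (left) and 12 hypoxia targets (right). Points are genes, grey lines join a gene across libraries and black bars are medians, with NC in grey and Zelnorm in red. Enzymes are highest in NC_5 and lowest in MBZ_13, and targets are high in both NC_5 and MBZ_15.

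Pdk1 and the phosphofructokinase regulators set how much sugar enters glycolysis and where pyruvate goes. Pdk1 encodes pyruvate dehydrogenase kinase 1, which holds pyruvate back from mitochondria and is a classical HIF target. It was at 158.6, 146.6 and 137.6 CPM in NC_5, NC_6 and NC_10 and at 127.5, 121.8, 120.5 and 137.4 CPM in MBZ_9, MBZ_11, MBZ_13 and MBZ_15. All 4 Zelnorm libraries lay below the 3 NC libraries, though MBZ_15 and NC_10 were almost level. Means were 148 ± 10.5 and 127 ± 7.71 CPM, a log2 fold change of -0.22 ± 0.07 (SE; 95% interval -0.37 to -0.07), with an unadjusted p of 0.00848 and an adjusted p of 0.296 in edgeR's quasi-likelihood test. Over 15 alternative fits its log2 fold change stayed between -0.29 and -0.16 and its unadjusted p was at most 0.0437. Pfkfb3, which makes the activator of phosphofructokinase, was at 41.5 ± 2.46 CPM in NC and 45.2 ± 4.80 in Zelnorm. Pfkfb4, a second enzyme of that kind, was at 6.59 ± 1.17 and 6.41 ± 0.46 CPM.

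The 3 genes of oxygen sensing were all lower in Zelnorm, with 1 of them at an unadjusted p below 0.05. Hif1a, which encodes HIF-1 alpha, was at 418, 493 and 453 CPM in NC and 417, 390, 425.8 and 391.6 CPM in Zelnorm. NC_6 and NC_10 were above all Zelnorm libraries, and NC_5 fell among them. The log2 fold change was -0.16 ± 0.07 (SE), with an unadjusted p of 0.0307 and an adjusted p of 0.428 in edgeR's test. With the muscle level as a covariate it was -0.08 (unadjusted p 0.220), and without NC_5 it was -0.22 (unadjusted p 0.00659). The unadjusted p was below 0.05 in 10 of 15 alternative fits. Egln1, the main prolyl hydroxylase, had 246 ± 25.4 CPM in NC and 231 ± 14.8 in Zelnorm, a log2 fold change of -0.09 ± 0.08 (SE) that was -0.19 with the muscle covariate (unadjusted p 0.0316). Egln3, the strongly hypoxia-induced one, had only 60 to 135 counts per library, and its 95% interval, -0.72 to 0.52 on the log2 scale, was the widest of the 36, so that changes up to about that size were not detectable.

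Of the 12 targets outside glycolysis, 9 were lower and 3 higher in Zelnorm, with a median log2 fold change of -0.07. Vegfa, the main growth factor of blood vessels, was at 182, 164 and 163 CPM in NC and 143, 139, 128 and 174 CPM in Zelnorm. MBZ_15 alone reached the NC range. Its log2 fold change was -0.22 ± 0.09 (SE), with an unadjusted p of 0.0436 and an adjusted p of 0.464 in edgeR's test. With the muscle level as a covariate it was -0.36 (unadjusted p 0.00110), and without NC_5 it was -0.17 (unadjusted p 0.157). The unadjusted p was below 0.05 in 10 of 15 alternative fits. Vegfa is known to act on endothelial cells, and of their 8 markers 4 were higher and 4 lower. Their log2 fold changes had a median of -0.01 and ran from -0.74 (Cldn5) to 0.07 (Kdr). The summed endothelial level was 184 CPM in NC_5 and 301 in NC_10, a wider spread than the 207 to 244 in Zelnorm. Any link to Vegfa was not tested.

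Bnip3 and Bnip3l encode related receptors that send mitochondria to autophagy. Bnip3, whose promoter is printed above with 1 palindrome, was at 422, 393 and 332 CPM in NC and 367, 313, 288 and 349 CPM in Zelnorm, a log2 fold change of -0.22 ± 0.10 (SE). Bnip3l was at 143, 153 and 126 CPM in NC and 124, 112, 121 and 136 CPM in Zelnorm, a log2 fold change of -0.19 ± 0.08 (SE). In both genes NC_10 was the lowest NC library and lay inside the Zelnorm range. The unadjusted p was 0.0498 and 0.0387 and the adjusted p 0.484 and 0.453 in edgeR's test, and the unadjusted p was below 0.05 in 9 of 15 alternative fits for each gene. Bnip3l is also known to act in maturing red cells, and all 5 erythroid markers tested were lower in Zelnorm by the fit. The summed erythroid level overlapped between groups (187 to 234 CPM in NC, 96.7 to 226 in Zelnorm). MBZ_11, the library lowest in Bnip3l, had the 226 CPM. The part of red cells in Bnip3l was not tested.

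P4ha1 and P4ha2 encode subunits of the prolyl hydroxylase that prepares collagen, and both were higher in Zelnorm. P4ha1 was at 181, 208 and 181 CPM in NC and 218, 201, 214 and 230 CPM in Zelnorm, so that only NC_6 reached into the Zelnorm range. Its log2 fold change was 0.19 ± 0.07 (SE; 95% interval 0.03 to 0.34), with an unadjusted p of 0.0208 and an adjusted p of 0.381 in edgeR's test. The log2 fold change of P4ha1 lay between 0.15 and 0.25 over 15 alternative fits, of which 11 had an unadjusted p below 0.05. The largest p, 0.139, came without the 3 libraries richest in muscle transcripts, a fit of 4 libraries with a log2 fold change of 0.15. P4ha2 was at 60.7, 75.3 and 65.0 CPM in NC and 73.0, 74.7, 65.8 and 97.2 CPM in Zelnorm, a log2 fold change of 0.22 ± 0.13 (SE) that was -0.02 without the 3 libraries richest in muscle transcripts. Its top value was in MBZ_15, the library with the highest fibroblast level (2661 CPM summed). NC_10, next in fibroblast level (2003 CPM summed), had the lowest P4ha1 of all libraries and P4ha2 at 65.0 CPM. Fibroblasts make much of the collagen of a tumour, and their 8 markers were all higher in Zelnorm by the fit. Of these, 2 had an unadjusted p below 0.05 in edgeR's test. The part of fibroblasts in P4ha1 and P4ha2 was not tested.

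**Figure D4:**
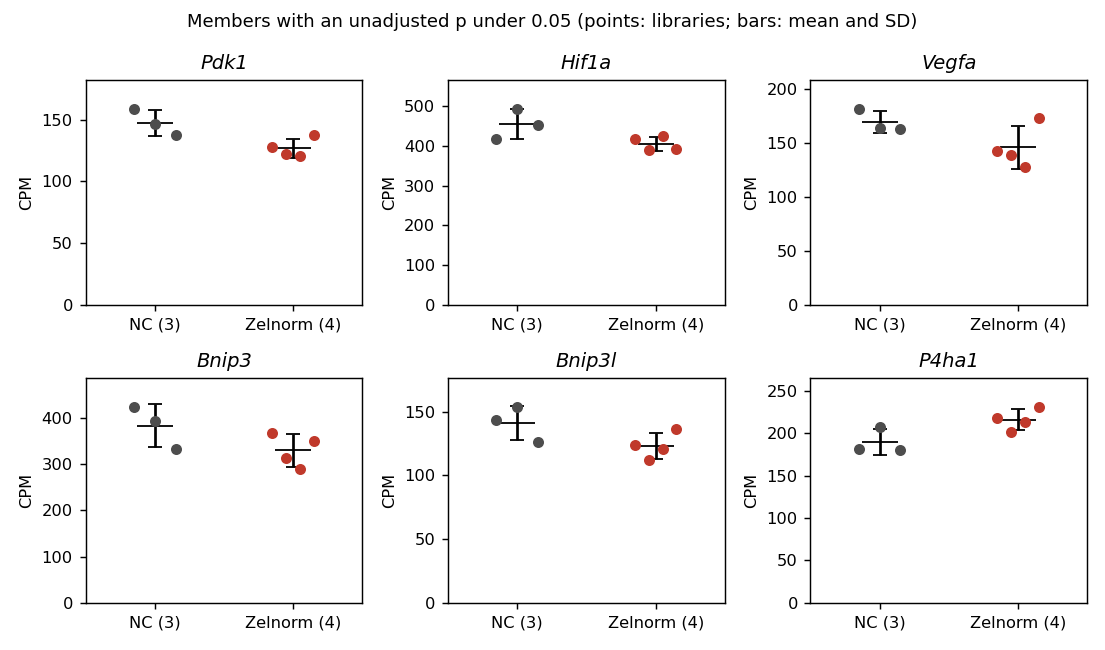
CPM of the 6 genes with an unadjusted p below 0.05, per library (points), with mean and SD (bars) for 3 NC (grey) and 4 Zelnorm (red) libraries. Only Pdk1 has no overlap between groups, and P4ha1 is the one gene of the 6 that is higher in Zelnorm.

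For the remaining targets the difference was within the spread between libraries in the fit reported. Car9, the surface carbonic anhydrase that is among the most specific hypoxia markers of tumours, was at 298, 220 and 191 CPM in NC and 260, 215, 177 and 231 CPM in Zelnorm, and the spread within NC exceeded the difference of the means (log2 fold change -0.10 ± 0.15, SE). Ndrg1, a stress-induced gene, was at 91.4, 82.1 and 81.7 CPM in NC and 76.3, 79.3, 67.8 and 117 CPM in Zelnorm. With 3 Zelnorm libraries below NC and MBZ_15 above it, its log2 fold change was 0.00 ± 0.16 (SE), and it was -0.20 without MBZ_15 (unadjusted p 0.0363) and -0.27 with the muscle level as a covariate (unadjusted p 0.0409). Adm, the vessel-widening peptide adrenomedullin, was at 67.8 ± 9.82 and 63.6 ± 3.93 CPM, a log2 fold change of -0.09 that was -0.19 without NC_5 (unadjusted p 0.0495) and -0.26 without the 3 libraries richest in muscle transcripts (unadjusted p 0.0387). The histone demethylase Kdm3a was at 133 ± 13.4 and 130 ± 8.45 CPM, the MYC antagonist Mxi1 at 67.1 ± 2.22 and 64.0 ± 8.30, and the mitochondrial protein Higd1a at 181 ± 18.6 and 173 ± 9.02. For Higd1a the log2 fold change of -0.06 was -0.16 with the muscle covariate (unadjusted p 0.0387). Ankrd37, with 58 to 114 counts per library, had a log2 fold change of -0.01 ± 0.23 (SE).

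Enzymes and targets were then set against each other in each library, as the difference between the mean log2 CPM of the 15 enzymes and that of the 12 targets. The difference was 3.52, 3.45 and 3.40 in NC_5, NC_6 and NC_10 and 3.60, 3.53, 3.44 and 3.32 in MBZ_9, MBZ_11, MBZ_13 and MBZ_15. The groups overlapped fully, since the highest and the lowest library were both Zelnorm. The means were 3.46 ± 0.06 (SD, n = 3) and 3.47 ± 0.12 (SD, n = 4), and their difference of 0.01 was small beside a range of 0.28 over the 7 libraries. Both parts were slightly lower in Zelnorm, by means of 10.12 ± 0.14 against 10.09 ± 0.10 for the enzymes and 6.67 ± 0.09 against 6.61 ± 0.13 for the targets. In MBZ_15 the targets were the highest of all libraries (6.80) while the enzymes were in the middle (10.12), which gave the lowest difference. MBZ_9 was the opposite, with enzymes second to NC_5 (10.20) and targets at 6.60. MBZ_15 also held the most muscle and fibroblast transcripts, and their part in its position was not tested. Since the members were chosen with results known, this score was given no p.

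**Figure D5:**
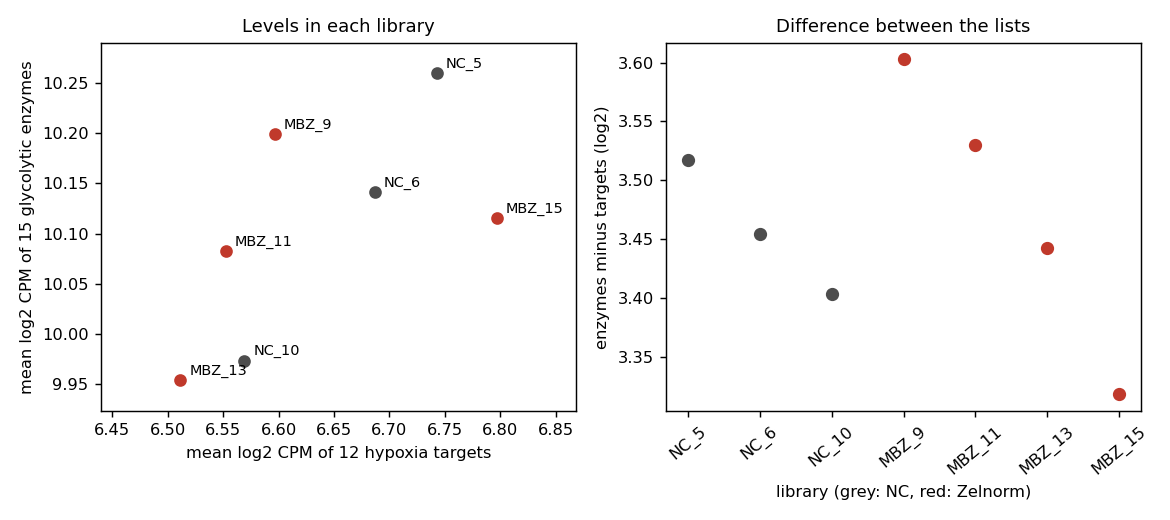
Left, mean log2 CPM of 15 enzymes (vertical) against that of 12 targets (horizontal) in each library. Right, their difference per library, with NC in grey and Zelnorm in red. The 3 NC libraries, at 3.40 to 3.52, lie inside the Zelnorm range of 3.32 to 3.60.

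Ratios between paired isoforms were compared in each library, since the scaling of a library cancels in them. All 11 pairs overlapped between groups. Eno2 over Eno1 had the largest difference, with a log2 ratio of -9.51 ± 0.38 in NC and -9.03 ± 0.12 in Zelnorm. Pfkp over Pfkl was -1.40 ± 0.02 and -1.30 ± 0.06, and only MBZ_13, at -1.39, reached the NC range. Hk2 over Hk1 was -0.50 ± 0.17 and -0.47 ± 0.20, Ldha over Ldhb was 2.78 ± 0.13 and 2.80 ± 0.16, and Bnip3 over Bnip3l was 1.44 ± 0.11 and 1.41 ± 0.14.

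Other genes of the same pathways were read from 2 further lists. Of 36 other glycolysis genes, 28 were tested, 13 higher and 15 lower in Zelnorm, with a median log2 fold change of -0.01 and 0 called after adjustment (4 higher and 1 lower at an unadjusted p below 0.05, against 6.94% and 3.38% of all tested genes). Hk3, a hexokinase found mainly in white blood cells, had the smallest p. It was at 8.18, 6.23 and 6.67 CPM in NC and 15.8, 19.5, 8.04 and 15.9 CPM in Zelnorm, with MBZ_13 inside the NC range. Its log2 fold change was 1.07 ± 0.25 (SE), with an adjusted p of 0.166 in edgeR's test. The leukocyte markers were lowest of the Zelnorm libraries in MBZ_13 as well (229 CPM summed) and highest in MBZ_11 (380 CPM). In NC_10 they summed to 259 CPM, above MBZ_13, while Hk3 was below MBZ_13 at 6.67 CPM. The part of leukocytes in Hk3 was not tested. Pdk4, a kinase of the Pdk1 family induced by fasting, was near the floor, with 0.11 to 0.56 CPM in NC and 0.29 to 2.02 CPM in Zelnorm, and is given without a fold. The monocarboxylate carrier Slc16a7 was at 43.3 ± 11.95 and 31.9 ± 4.86 CPM, and Ldhd, a D-lactate dehydrogenase, at 1.08 ± 0.28 and 1.92 ± 0.59 CPM. Pgam2, the muscle phosphoglycerate mutase, singled out after its values were seen, was at 2.22 to 2.33 CPM in NC and 2.64 to 4.82 in Zelnorm. It was the 1 gene of this list with every Zelnorm library above every NC library (5.33% of all tested genes). Pgam2 was highest in MBZ_15, the library richest in muscle transcripts, and lowest in NC_5, also among the 3 richest. The part of muscle in Pgam2 was not tested.

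Of 46 other hypoxia genes, 45 were in the table under their listed symbols and 43 were tested. By the fit 17 were higher and 26 lower, with a median log2 fold change of -0.05 and 0 called after adjustment (1 higher and 5 lower at an unadjusted p below 0.05, against 6.94% and 3.38% of all tested genes). Bhlhe40, a clock-linked repressor that HIF induces, was at 363, 366 and 352 CPM in NC and 321, 285, 277 and 330 CPM in Zelnorm, with no overlap. Its log2 fold change was -0.25 ± 0.07 (SE), with an adjusted p of 0.227 in edgeR's test. Cited2, which limits HIF by competing for its coactivator, was at 232 ± 17.5 and 201 ± 13.1 CPM, also with no overlap. With Narf, named after its values were seen, 3 genes of this list had every Zelnorm library below every NC library (4.27% of all tested genes). The histone demethylase Kdm4b was at 116 ± 14.8 and 97.0 ± 7.23 CPM. Plin2, a coat protein of lipid droplets, was the gene on the higher side, at 180 ± 8.56 and 205 ± 13.5 CPM, and the 1 gene of the list with every Zelnorm library above every NC library (5.33% of all tested genes).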

How the data were processed

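The authors deposited 1 table of raw counts per gene, with 1 column for each of 7 libraries. TRIzol extraction and a stranded mRNA library kit were used, per the labels' protocols. Trimmomatic, HISAT2, Cufflinks, HTSeq and DESeq are listed without versions or roles per the submitters' processing notes, with the builds GRCh38 (human) and GRCm38 (mouse). How strand was set in counting, and with which annotation, is not given in the sources used here. Columns name a library's group but not its replicate number, so each was assigned to its group only.

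Genes passing filterByExpr (12997 of 21878) were fitted with edgeR 4.0.16 in R 4.3.3 (TMM factors 0.986 to 1.01, quasi-likelihood test, Benjamini-Hochberg at 0.05), with no covariate. All 36 members passed the filter. CPM are counts scaled by TMM-adjusted library size. Log2 levels used a prior count of 2. The counts of every pair of libraries differed beyond sampling noise (chi-square per degree of freedom 6.53 to 20.9), and the scripts were tested on simulated data.

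The members and gene lists were chosen with earlier results of these data known. All 36 members are accounted for, and of the 2 lists of other pathway genes up to 4 each with the smallest p are named. Gene positions were taken from RefSeq GRCm38.p6, exon lengths from GENCODE M21, and promoters from RefSeq. Alternatives were RLE and upper-quartile scaling, other count filters (none, or 10 in every library), the muscle level as covariate, DESeq2 1.42.0, limma voom (limma 3.58.1), leaving out each library and leaving out the 3 libraries highest in muscle markers, and, for enzymes against targets, other prior counts, other members and the median.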

Additional observations from a re-analysis of the deposited data

Results flagged for a closer look

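In the 4 Zelnorm libraries, Hk1 in MBZ_13 stood apart from the others, at 417 CPM against 526 to 535 in the other 3. Kdm3a in MBZ_11, at 117 CPM, likewise lay below the other Zelnorm libraries, which were at 133 to 135. Of 39 groups of values examined with Dixon's criterion, these 2 were flagged, and chance flags about 1 in 20.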

How the results depend on the processing

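Members called stayed at 0 under every alternative. Genes called over the whole table, 4 in the fit reported, were 34 with no filter on low counts, 203 by DESeq2, 0 to 157 with single libraries left out (0 without NC_5, 157 without NC_10, 21 without MBZ_15) and 0 without the 3 libraries richest in muscle transcripts. Members lower at an unadjusted p below 0.05, 5 as reported, were 10 with the muscle level as covariate and 1 to 9 with single libraries left out. Those higher, 1 as reported, were 2 by limma voom, 0 to 3 with single libraries left out and 0 without the 3 muscle-rich libraries. In the fit reported, 3.38% of all tested genes were lower and 6.94% higher at that threshold. The shares in the other fits are not given here, so their member counts have no background beside them. The difference of enzymes minus targets lay between -0.03 and 0.09 in all alternatives. The cause of these shifts was not tested.

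Of 252 log2 fold changes of members in alternatives that left out no library, 6 changed sign, all of Ndrg1: -0.0037 (RLE), -0.00064 (upper quartile), -0.0034 (no filter), -0.27 (muscle covariate), -0.0068 (DESeq2) and -0.025 (voom). Without the 3 muscle-rich libraries, signs changed for Aldoa (0.018), Aldoc (8.1e-05), Tpi1 (0.022), Pkm (0.0092), Pfkfb4 (0.029), Car9 (0.081), Ankrd37 (0.080), Kdm3a (0.041), Ndrg1 (-0.19) and P4ha2 (-0.020). With single libraries left out 27 of 252 changed sign, and ranges were -0.13 to 0.036 (Hk1), -0.092 to 0.011 (Hk2), -0.086 to 0.030 (Pfkp), -0.19 to 0.017 (Tpi1), -0.14 to 0.038 (Pkm), -0.017 to 0.037 (Pgam1), -0.17 to 0.015 (Slc2a1), -0.085 to 0.019 (Slc2a3), -0.17 to 0.024 (Slc16a3), -0.17 to 0.096 (Pfkfb4), -0.34 to 0.15 (Egln3), -0.24 to 0.10 (Car9), -0.17 to 0.20 (Ankrd37), -0.12 to 0.0088 (Kdm3a), -0.11 to 0.024 (Higd1a), -0.20 to 0.097 (Ndrg1) and -0.19 to 0.010 (Adm). Counts were lowest for Ankrd37 (58 to 114 per library), Egln3 (60 to 135) and Pfkfb4 (98 to 144).

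No paired analysis was possible because the columns of the count table carry no replicate numbers of the sample titles.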
